A study of Rattus norvegicus with 17 samples.

Results

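Excitation-contraction coupling genes encode the proteins that turn the action potential of a muscle fiber into release of calcium from its internal store. The set was defined by name: the entries of the deposited rat count table called Ryr1, Cacna1s, Cacng1, Cacnb1, Jph1, Jph2, Stac3, Trdn, Sln and Asph. All 10 were in the table, each on 1 entry, among 32495 named entries. All 10 passed the filter on low counts and so were among the 11856 entries tested.

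At the triad, a transverse tubule lies between the terminal cisternae of the sarcoplasmic reticulum. The dihydropyridine receptor, a voltage-gated calcium channel of the tubule membrane, senses the depolarisation and opens the ryanodine receptor of the store, to which it is mechanically coupled in skeletal muscle. Junctophilins hold the membranes together, triadin and junctin anchor calsequestrin beside the release channel, and the calcium pump, which sarcolipin inhibits, refills the store.

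Total RNA came from the gastrocnemius, a mixed calf muscle, of rats on the control diet. Of the 16 samples, 5 were from healthy rats, 5 from rats with a tumor and no chemotherapy, and 6 from rats with a tumor and chemotherapy. The strain, sex and age of the rats, the tumor, the agent and its dose are not named by the labels. The labels do not say that each library came from its own animal, so the p-values measure the spread between these samples. Libraries keep their numbers from the labels: 1 to 5 are healthy, 6 to 10 tumor, and 11 to 17 tumor with chemotherapy, called chemotherapy below. The chi-square per degree of freedom between libraries 11 and 12 was 2.04, against 5.47 for the next closest pair within a group, and these libraries were summed into 1 sample, library 11.

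The 17 deposited libraries held 3020821 to 15719080 counts, and the 10 genes had from 21 counts, for Sln, to 83441 counts, for Ryr1, in a library. The muscle fiber markers (Acta1, Ckm, Mb, Neb and Des) had no 0 in any sample and summed to 86986 to 181776 CPM, the count scaled to the size of the library. The samples were not alike within the groups. In a principal component analysis of 1000 highly variable genes, the first component held 48.4% of the variance, and on it healthy libraries 1, 3 and 4 lay at 27.7 to 42.0, healthy libraries 2 and 5 at -10.4 and 7.18, tumor libraries at -20.9 to 19.8 and chemotherapy libraries at -28.1 to 4.81. The alignment names in the table end in MB for healthy libraries 1 to 4 and chemotherapy library 11, and in VM for all others, and the sources used here do not say what the letters mean. Values without libraries 1, 3 and 4 are given beside the results.

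RefSeq promoters of the GRCr8 assembly could be matched for 5 of the 10 genes. The 250 bases before the annotated start are shown for 4 of them: Cacna1s and Ryr1, which were lower on average with a tumor and lowest with chemotherapy, and Stac3 and Trdn, which stood in the opposite order. Capitals mark E-boxes, the CANNTG motif that myogenic factors such as MyoD bind.
Cacna1s, chr13:50045418-50045667, plus strand: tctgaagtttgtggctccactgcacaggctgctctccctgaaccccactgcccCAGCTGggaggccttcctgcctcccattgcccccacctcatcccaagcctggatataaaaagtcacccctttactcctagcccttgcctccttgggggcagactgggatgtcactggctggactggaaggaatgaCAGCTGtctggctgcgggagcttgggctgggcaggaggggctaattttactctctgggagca
Ryr1, chr1:93551306-93551555, minus strand: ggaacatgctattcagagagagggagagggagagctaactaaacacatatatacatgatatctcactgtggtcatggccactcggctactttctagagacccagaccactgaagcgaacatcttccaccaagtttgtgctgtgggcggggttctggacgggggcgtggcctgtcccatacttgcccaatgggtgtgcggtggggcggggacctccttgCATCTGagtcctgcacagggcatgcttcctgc
Stac3, chr7:65228225-65228474, plus strand: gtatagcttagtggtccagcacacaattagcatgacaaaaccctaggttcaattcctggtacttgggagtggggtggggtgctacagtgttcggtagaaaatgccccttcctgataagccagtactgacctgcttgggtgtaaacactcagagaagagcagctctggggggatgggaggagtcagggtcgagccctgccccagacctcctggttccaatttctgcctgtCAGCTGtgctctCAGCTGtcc
Trdn, chr1:26229600-26229849, minus strand: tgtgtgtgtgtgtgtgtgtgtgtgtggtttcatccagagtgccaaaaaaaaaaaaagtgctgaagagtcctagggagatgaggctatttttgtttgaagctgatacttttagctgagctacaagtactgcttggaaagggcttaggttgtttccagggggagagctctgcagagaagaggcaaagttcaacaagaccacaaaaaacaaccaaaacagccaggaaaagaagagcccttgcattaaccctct
Cacna1s and Stac3 each held 2 E-boxes in this window, Ryr1 held 1, and Trdn and Jph2 held 0. On either strand, an E-box was found in 65.5% of the 33469 promoters of this length, so a match is the common case. The letters TATAAA, searched on both strands, were found only in the Cacna1s window among the 5, against 12.9% of all promoters, and no window held the MEF2 or CArG motif, found in 2.961% and 1.497% of all promoters. The guanine and cytosine content was 59.2% for Cacna1s, 55.6% for Ryr1, 54% for Stac3 and 44% for Trdn. A match describes letters in a window and shows no binding.

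The genes called among the 10 encode subunits of the calcium channel of the tubule membrane. With chemotherapy, 3 of the 10 genes were lower than in healthy muscle by edgeR's quasi-likelihood test at an adjusted p below 0.05. These were Cacna1s, Cacng1 and Cacnb1, 3 subunits of 1 channel. A further subunit gene of that channel, Cacna2d1, is not among the 10 genes and did not fall. Its log2 fold change from healthy was 0.64 ± 0.28 with chemotherapy and 0.40 ± 0.29 with a tumor, and it was called in neither comparison. Across all genes tested, 6.41% were called lower and 7.3% higher with chemotherapy than in healthy muscle, and none of the 10 genes was called higher. Against tumor muscle without chemotherapy, none of the 10 genes was called, and 0% of all genes were. Between tumor and healthy muscle, again none of the 10 genes and 0% of all genes were called. The tumor and the chemotherapy comparison share the healthy samples, so their values are given side by side and not as support for each other.

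Cacna1s encodes the pore-forming subunit that holds the voltage sensor. Its level was 2931, 2044, 2786, 3345 and 1827 CPM in healthy libraries 1 to 5. In tumor libraries 6 to 10 it was 1002, 1334, 2194, 1171 and 1992 CPM, and with chemotherapy it ran from 1029.7 to 1713 CPM with a median of 1310.0 CPM. Every chemotherapy sample lay below every healthy one, while tumor libraries 8 and 10 reached into the healthy range. The mean fell from 2586 ± 634 CPM (SD, n = 5) in healthy muscle to 1367 ± 259.8 CPM (n = 6) with chemotherapy, a log2 fold change of -0.92 ± 0.21 (SE) with an adjusted p of 0.0264. The tumor mean was 1539 ± 524 CPM (n = 5), with a log2 fold change of -0.75 ± 0.22 from healthy and an adjusted p of 0.211. It ranked at place 149 of 11856 by p in the tumor comparison and at place 140 in the chemotherapy comparison.

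Cacng1 encodes the gamma subunit, a membrane protein specific to the skeletal muscle channel that dampens its current. Healthy libraries 1 to 5 held 470.2, 405, 657, 645 and 383 CPM. Tumor libraries 6 to 10 held 247, 268, 363, 319 and 354 CPM, and chemotherapy libraries 279 to 341 CPM with a median of 299 CPM. Healthy muscle was above both other groups without overlap, and the chemotherapy samples lay close together, with a coefficient of variation of 8.45% against 25.6% in healthy muscle. The mean fell from 512 ± 131 CPM (n = 5) to 307 ± 26.0 CPM (n = 6) with chemotherapy, a log2 fold change of -0.74 ± 0.16 and an adjusted p of 0.0261. Tumor muscle stood at 310.3 ± 51.7 CPM (n = 5), with a log2 fold change of -0.72 ± 0.16, which was place 10 of all genes by p but had an adjusted p of 0.211. DESeq2's Wald test called Cacng1 lower in tumor than in healthy muscle, with an adjusted p of 0.0218. Of all genes, 0.557% were lower without overlap in tumor than in healthy muscle and 1.97% in chemotherapy than in healthy muscle. Cacng1 was the only 1 of the 10 in the first case, and Cacna1s and Cacng1 were the 2 in the second.

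Cacnb1 encodes the cytosolic beta subunit, which brings the channel to the triad. Its level in healthy libraries 1 to 5 was 261, 182, 274, 319 and 176 CPM. Tumor libraries 6 to 10 had 131, 165, 201, 165 and 213 CPM, and chemotherapy libraries 145 to 194 CPM with a median of 163 CPM. Healthy libraries 2 and 5 lay among the tumor and chemotherapy samples, so the groups overlapped. The mean fell from 242 ± 61.8 CPM (n = 5) to 167 ± 23.4 CPM (n = 6) with chemotherapy, with a log2 fold change of -0.54 ± 0.17 and an adjusted p of 0.0423. The tumor mean was 175 ± 32.7 CPM (n = 5), with a log2 fold change of -0.47 ± 0.18 and an adjusted p of 0.242.

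**Figure D1:**
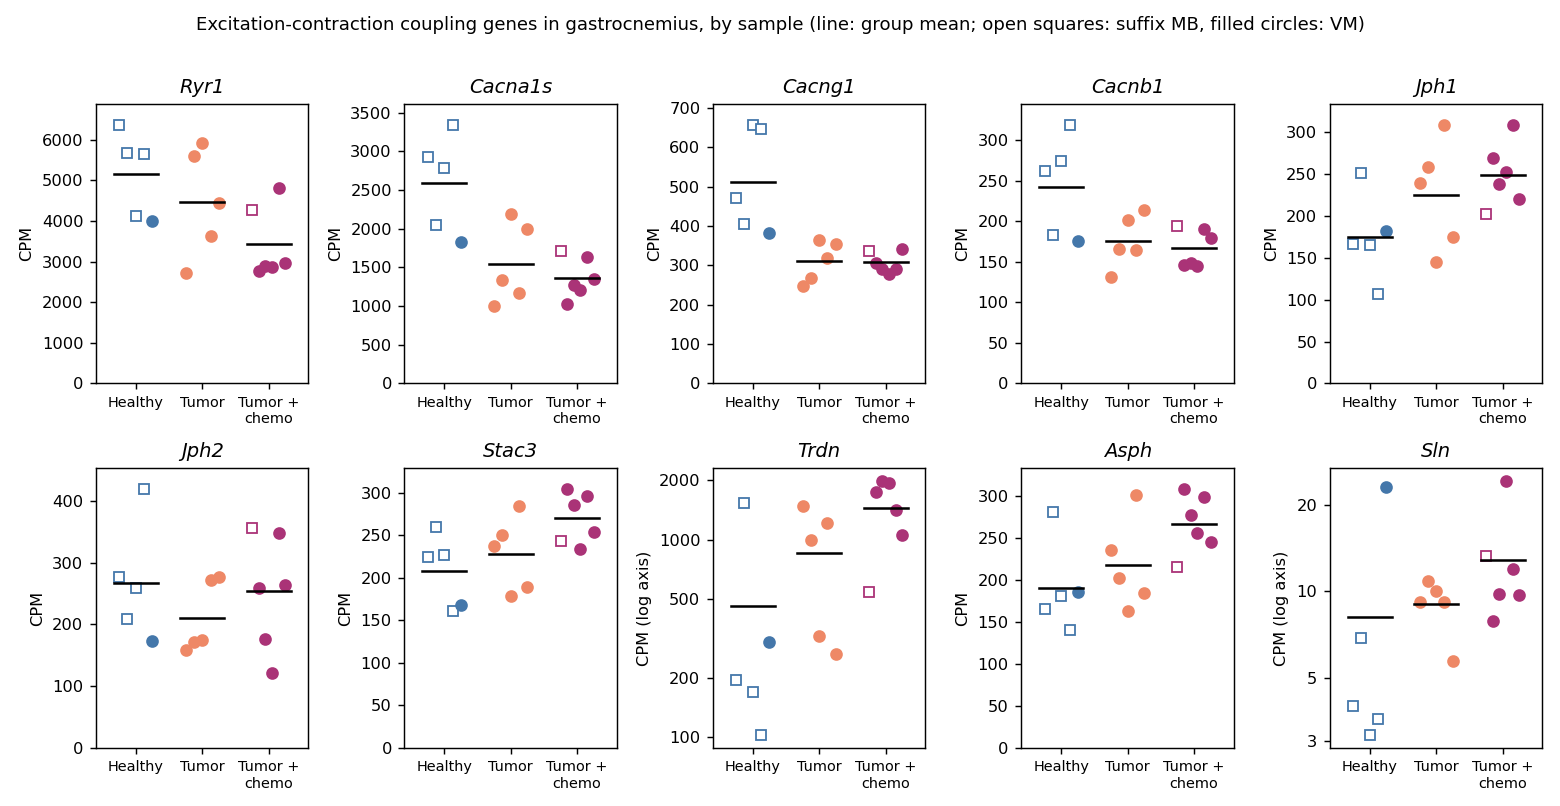
Level of each of the 10 genes in CPM in every sample, by group, with the group mean as a line, open squares for libraries with the suffix MB and filled circles for VM; Trdn and Sln have log axes. Healthy samples lie above all chemotherapy samples for Cacna1s and Cacng1, and 1 healthy sample (library 2) lies among the high Trdn values at 1538 CPM.

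The 3 calls depended on which samples were compared and on terms added to the fit, and that of Cacnb1 also on the scaling and the filter. Without any 1 of healthy libraries 1, 3 or 4, or of chemotherapy libraries 13, 14 or 15, no gene of the whole table was called in the chemotherapy comparison. The adjusted p was then 0.0572 to 0.0871 for Cacna1s, 0.0571 to 0.0836 for Cacng1 and 0.0849 to 0.131 for Cacnb1. Across all 16 fits that left out 1 sample, the log2 fold change stayed between -1.03 and -0.82 for Cacna1s, between -0.84 and -0.64 for Cacng1 and between -0.65 and -0.43 for Cacnb1. The call of Cacnb1 was also lost without chemotherapy library 16 (adjusted p of 0.0569) or 17 (0.0561). With all samples kept, it was lost with total counts only (0.0820) and with no filter on low counts (0.0607). A fit of the healthy and chemotherapy samples alone, without the tumor samples, also lost it (0.0512). Without healthy libraries 1, 3 and 4 together, the log2 fold change was -0.50 for Cacna1s, -0.36 for Cacng1 and -0.10 for Cacnb1, with adjusted p-values of 0.899, 0.899 and 0.957. Among VM libraries alone, where healthy library 5 is the only control, the values were -0.49, -0.34 and -0.12, with adjusted p-values of 0.653, 0.642 and 0.897. With the suffix as a term they were -0.59, -0.52 and -0.27, with adjusted p-values of 0.588, 0.588 and 0.660.

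Stac3 encodes an adaptor that the channel needs to reach the tubule membrane and to couple to the release channel. Its group means stood in the opposite order to those of the 3 subunits among the 10 genes. Healthy libraries 1 to 5 held 224, 260.0, 227, 161 and 168 CPM. Tumor libraries 6 to 10 held 238, 251, 178, 284 and 189.7 CPM, and chemotherapy libraries 235 to 305 CPM with a median of 269.9 CPM. Healthy library 2 lay within the chemotherapy range and the other healthy libraries below it. Its log2 fold change was 0.38 ± 0.15 with chemotherapy and 0.13 ± 0.16 with a tumor, with adjusted p-values of 0.0860 and 0.647. The first was called without healthy library 2 (0.46, adjusted p of 0.0314), and was 0.34 without healthy libraries 1, 3 and 4 (0.899) and 0.098 with 1 surrogate variable. Without healthy library 2, 2024 genes of the whole table were called higher with chemotherapy, against 865 with all samples kept.

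Ryr1 encodes the calcium release channel of skeletal muscle. Its level was 6369, 5662, 4111, 5634 and 3991 CPM in healthy libraries 1 to 5. Tumor libraries 6 to 10 had 2708, 5604, 5925, 3633 and 4452 CPM, and chemotherapy libraries 2761 to 4801 CPM with a median of 2934 CPM. Chemotherapy libraries 13, 14, 15 and 17 lay between 2761 and 2975 CPM, below every healthy sample, and libraries 11 and 16 lay among the lower healthy values. The log2 fold change with chemotherapy was -0.59 ± 0.21 with an adjusted p of 0.0601, and with a tumor it was -0.21 ± 0.22 with an adjusted p of 0.605. Ryr1 passed the threshold in the chemotherapy comparison by DESeq2 (adjusted p of 0.0374) and by limma-voom (0.0449). It also passed by edgeR without healthy library 5 (0.0386), tumor library 6 (0.0450), tumor library 8 (0.0463) or chemotherapy library 11 (0.0382). Its log2 fold change was -0.50 without healthy libraries 1, 3 and 4 (adjusted p of 0.899), -0.33 with 1 surrogate variable (0.879) and -0.29 among VM libraries alone (0.805).

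The number of Ryr1 counts per Cacna1s count sets the release channel against its voltage sensor within a library, free of how libraries are scaled. It is not a ratio of molecules, because the transcripts differ in length. The ratio was 2.17, 2.77, 1.48, 1.68 and 2.18 in healthy libraries 1 to 5 and 2.70, 4.20, 2.70, 3.10 and 2.24 in tumor libraries 6 to 10. With chemotherapy it ran from 2.20 to 2.95 with a median of 2.43. Tumor library 7, with 4.20, was the highest of all, and healthy libraries 3 and 4 were the lowest. The geometric mean was 2.92 in tumor and 2.01 in healthy muscle, a log2 difference of 0.54 with an exact two-sided permutation p of 0.0476, which became 0.214 when adjusted over the 9 ratio tests. With chemotherapy the geometric mean was 2.48, a log2 difference of 0.30 from healthy with an exact p of 0.0931 and an adjusted p of 0.234. Without healthy library 2 the log2 differences were 0.66 and 0.42, with adjusted p-values of 0.0476 and 0.0214 by the exact permutation test. Without healthy libraries 1, 3 and 4 they were 0.25 and 0.012, and neither passed the threshold.

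**Figure D2:**
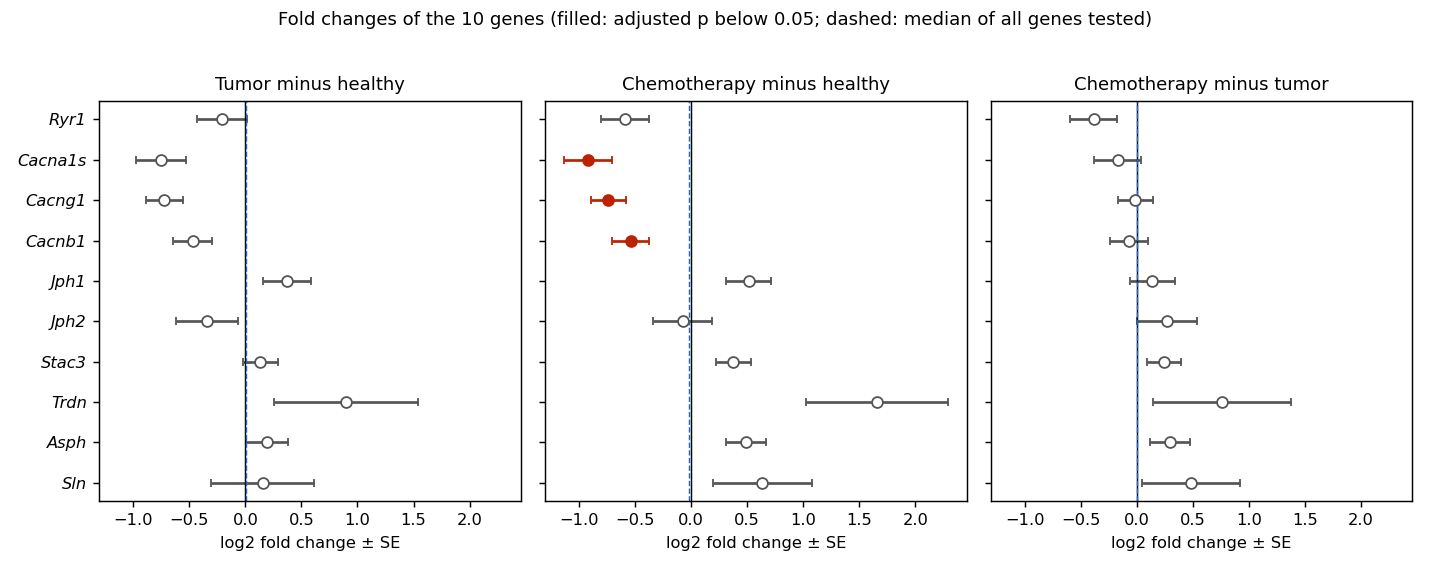
Log2 fold change with its SE for each of the 10 genes in the 3 comparisons; filled points have an adjusted p below 0.05 and the dashed line is the median of all genes tested. Only Cacna1s, Cacng1 and Cacnb1 are filled, all in chemotherapy minus healthy, at -0.92, -0.74 and -0.54.

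Triadin and junctin are the store membrane's partners of the release channel. Trdn encodes triadin, and Asph encodes junctin along with the aspartate beta-hydroxylase, junctate and humbug from the same locus, so its count cannot be read as junctin alone. Trdn was at 194, 1538, 169, 103 and 302 CPM in healthy libraries 1 to 5. In tumor libraries 6 to 10 it was at 1479, 995, 327, 1219 and 265 CPM, and with chemotherapy it ran from 542 to 1989 CPM with a median of 1586 CPM. It was the most variable of the 10 genes within healthy muscle, with a coefficient of variation of 131%, with library 2 among the chemotherapy samples and the other healthy libraries at no more than 302 CPM. Tumor libraries 6, 7 and 9 lay in the range of the chemotherapy samples, and tumor libraries 8 and 10 below it.

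The log2 fold change of Trdn was 1.66 ± 0.63 with chemotherapy and 0.90 ± 0.64 with a tumor, with adjusted p-values of 0.0750 and 0.433. These values depended on healthy library 2. Without that library, the genes of the whole table called higher rose from 865 to 2024 with chemotherapy and from 0 to 245 with a tumor. Trdn was then called higher in both comparisons, by 2.91 with an adjusted p of 0.0041 and by 2.15 with an adjusted p of 0.0445 on the log2 scale. It was also called without chemotherapy library 11 (1.83, adjusted p of 0.0492). When healthy libraries 1, 3 and 4 were left out the values were 0.65 and -0.10, and with 1 surrogate variable in the fit 0.18 and -0.015.

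Asph varied over a narrower range. Healthy libraries 1 to 5 held 165, 281, 181, 139.7 and 186 CPM, and tumor libraries 6 to 10 held 236, 202, 163, 302 and 184 CPM. Chemotherapy libraries held 215 to 308 CPM with a median of 267 CPM. Healthy library 2 was again the only healthy sample inside the chemotherapy range. The log2 fold change with chemotherapy was 0.49 ± 0.18 with an adjusted p of 0.0650, and with a tumor 0.19 ± 0.19 with an adjusted p of 0.568. Without healthy library 2, when 2024 genes of the table were called higher, the first of these was 0.66 with an adjusted p of 0.0081. Without chemotherapy library 11 its adjusted p was 0.0416. It was 0.19 without healthy libraries 1, 3 and 4 (adjusted p of 0.921) and 0.029 with 1 surrogate variable (0.993).

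Asph counts per Trdn count were lower in every chemotherapy sample than in every healthy library but library 2. The ratio was 0.850, 0.183, 1.07, 1.36 and 0.616 in healthy libraries 1 to 5, and 0.133 to 0.397 with a median of 0.193 with chemotherapy. The geometric means were 0.674 and 0.200, a log2 difference of -1.76 with an exact permutation p of 0.0173 and an adjusted p of 0.156. Without healthy library 2 the difference was -2.23 with an adjusted p of 0.0214 by the same exact test. For tumor against healthy muscle the log2 difference with all samples kept was -1.13 with an exact p of 0.111. The log2 differences shrank to -0.75 with chemotherapy and -0.12 with a tumor without healthy libraries 1, 3 and 4. Neither passed the threshold.

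Junctophilins span the gap between tubule and store membrane. Jph1 is the form found mainly in skeletal muscle, and Jph2 is shared with the heart. Jph1 was at 167, 251, 165, 107 and 181 CPM in healthy libraries 1 to 5 and at 239.6, 258, 145, 308 and 174 CPM in tumor libraries 6 to 10. With chemotherapy it ran from 202 to 309 CPM with a median of 245 CPM, above every healthy sample but library 2. For Jph1 the log2 fold change was 0.51 ± 0.20 with chemotherapy (adjusted p of 0.0807) and 0.37 ± 0.21 with a tumor (0.337). Without healthy library 2, when 2024 genes of the table were called higher, the first was 0.67 with an adjusted p of 0.0174. It was 0.20 without healthy libraries 1, 3 and 4 (0.926) and -0.047 with 1 surrogate variable (0.993).

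Jph2 was at 277, 208, 259, 420.1 and 173 CPM in healthy libraries 1 to 5 and at 158, 172, 176, 273 and 277 CPM in tumor libraries 6 to 10. With chemotherapy it ran from 122 to 356 CPM with a median of 262 CPM. The ranges of the 3 groups overlapped, and the highest sample was healthy library 4 and the lowest chemotherapy library 15. For Jph2 the log2 fold change was -0.07 ± 0.26 with chemotherapy and -0.34 ± 0.28 with a tumor, with adjusted p-values of 0.868 and 0.485. The first was 0.42 without healthy libraries 1, 3 and 4, with an adjusted p of 0.904. Jph2 counts per Jph1 count had a geometric mean of 1.52 in healthy, 0.945 in tumor and 0.969 in chemotherapy muscle. Neither difference from healthy passed the exact permutation test, with p-values of 0.190 and 0.208.

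Sln encodes sarcolipin, a small peptide that binds the calcium pump of the store and lowers its efficiency. It was at 3.97, 6.86, 3.15, 3.58 and 23.2 CPM in healthy libraries 1 to 5. In tumor libraries 6 to 10 it was at 9.16, 10.9, 10.1, 9.21 and 5.71 CPM, and with chemotherapy it ran from 7.86 to 24.3 CPM with a median of 10.9 CPM. Healthy library 5 was nearly as high as the highest chemotherapy sample, library 15, while the other healthy libraries lay below every chemotherapy sample. The log2 fold change was 0.64 ± 0.44 with chemotherapy and 0.15 ± 0.46 with a tumor, with adjusted p-values of 0.305 and 0.876. Without healthy library 5 the first was 1.59 with an adjusted p of 0.0185. Library 5 is the only healthy sample with the suffix VM, and among VM libraries alone the value was -0.89. It was -0.30 without healthy libraries 1, 3 and 4. The counts behind Sln were 21 to 189 a library.

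Between chemotherapy and tumor muscle, none of the 10 genes passed the test. The log2 fold change was -0.38 ± 0.21 for Ryr1, -0.17 ± 0.21 for Cacna1s, -0.01 ± 0.16 for Cacng1 and -0.07 ± 0.17 for Cacnb1. It was 0.14 ± 0.20 for Jph1, 0.27 ± 0.27 for Jph2, 0.24 ± 0.15 for Stac3 and 0.30 ± 0.18 for Asph. For Trdn it was 0.76 ± 0.62 and for Sln 0.48 ± 0.44. The adjusted p was 0.778 to 0.985 over the 10 genes, and every pair of ranges overlapped.

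In the order of the group means, tumor muscle stood between healthy and chemotherapy muscle for 9 of the 10 genes, against 58.0% of all genes tested. Ryr1, Cacna1s, Cacng1 and Cacnb1 were highest in healthy and lowest in chemotherapy muscle. Jph1, Stac3, Trdn, Sln and Asph stood in the opposite order, and Jph2 was lowest in tumor muscle. The neighbours in these orders differed beyond the test's threshold in no case. As a list, the 10 genes had a median log2 fold change of 0.15 with chemotherapy and -0.04 with a tumor, against -0.02 and 0.01 for all genes, and held genes of both orders.

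Correlations between the genes across samples pool the 3 groups, so they partly restate the order of the group means. Over the 16 samples, the log2 CPM of Cacna1s, Cacng1 and Cacnb1 correlated with each other at a Pearson r of 0.89 to 0.95. Jph1, Stac3, Trdn and Asph correlated with each other at 0.80 to 0.93, and the 12 pairs between these sets ran from -0.89 to -0.53. When healthy libraries 1, 3 and 4 were left out, the corresponding ranges were 0.70 to 0.88, 0.83 to 0.90 and -0.72 to -0.29. Stac3 thus varied with Jph1, Trdn and Asph and against these 3 channel subunits, and its r with Jph2 was -0.0068 and with Sln 0.13. Jph2 was nearest to Cacnb1 of the other genes, at 0.65. Ryr1 went with Cacna1s at 0.77, and Jph1 with Jph2 at -0.27. Sln, with group means in the same order as Jph1, Stac3, Trdn and Asph, correlated with these at 0.13 to 0.55. Without healthy libraries 1, 3 and 4 those values for Sln were -0.27 to -0.027. These values describe samples that share their library scaling and come from 3 groups, and carry no test.

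**Figure D3:**
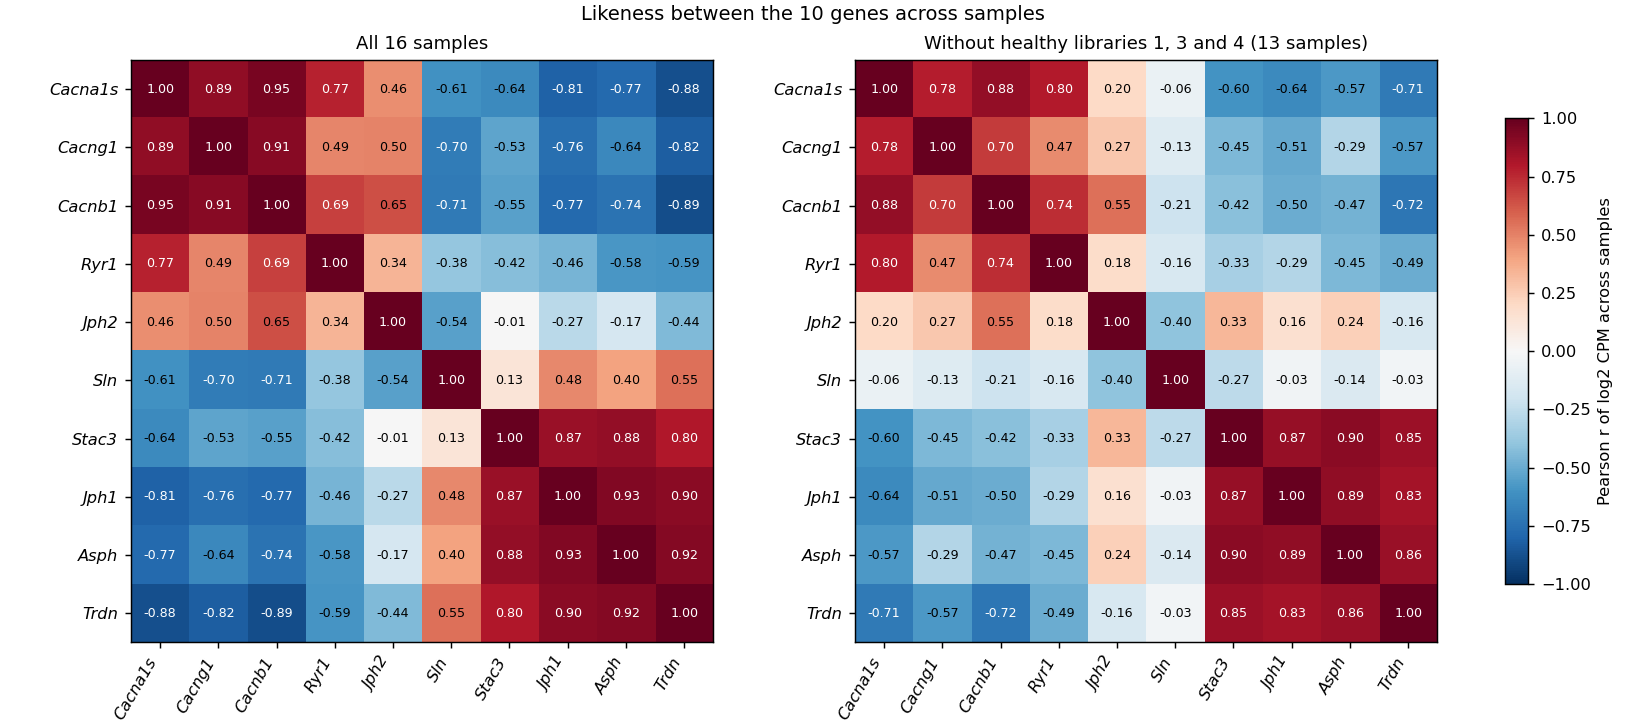
Pearson r of log2 CPM between each pair of the 10 genes over all 16 samples (left) and without healthy libraries 1, 3 and 4 (right, 13 samples). The upper left block of Cacna1s, Cacng1 and Cacnb1 is at 0.89 to 0.95 on the left and 0.70 to 0.88 on the right, and the lower right block of Stac3, Jph1, Asph and Trdn at 0.80 to 0.93 and 0.83 to 0.90.

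Cacna1s, Cacng1 and Cacnb1 went the opposite way to the set with Trdn along the main direction of variation in the whole table. For 7 of the 10 genes, r with the first principal component was beyond 0.7 in size, against 38.8% of all genes tested. The r was 0.93 for Cacnb1, 0.92 for Cacna1s and 0.88 for Cacng1. It was -0.98 for Trdn, -0.90 for Jph1, -0.89 for Asph and -0.73 for Stac3. Ryr1 stood at 0.64, Sln at -0.64 and Jph2 at 0.49. With 1 surrogate variable as a term, the log2 fold change with chemotherapy was -0.30 for Cacna1s, -0.30 for Cacng1 and -0.02 for Cacnb1, with adjusted p-values of 0.829, 0.792 and 0.993.

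**Figure D4:**
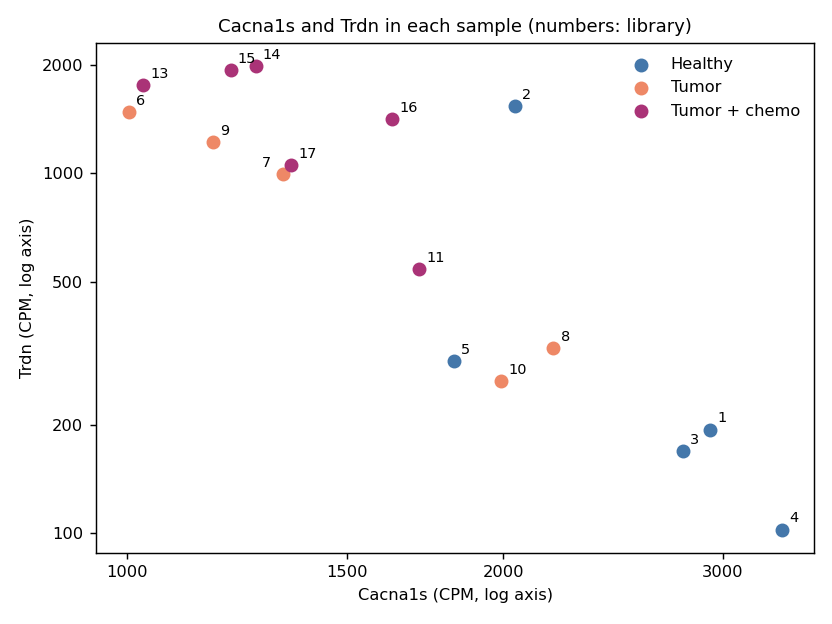
Level of Trdn against level of Cacna1s in each of the 16 samples, in CPM on log axes, with colours for the groups and library numbers beside the points. Samples run from healthy libraries 4, 3 and 1, high in Cacna1s and low in Trdn, to chemotherapy libraries, and healthy library 2 lies apart from its group at 2044 CPM of Cacna1s and 1538 CPM of Trdn.

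Of 9334 genes compared, those most like Ryr1 across the 16 samples were Hcfc1 (r of 0.96), Rnpepl1 (0.95), Tacc2 (0.94), Wnk2 (0.94) and Atg2a (0.94). With healthy libraries 1, 3 and 4 left out they were at 0.93 to 0.96. Those most like Sln were Edrf1 (0.83), Acad9 (0.82), Lin54 (0.82), Wars1 (0.82) and Prxl2a (0.81), and without the same libraries they were at 0.48 to 0.73. The likeness to Ryr1 was thus nearly as high without these libraries and that to Sln was not.

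Other genes of the same machinery were taken from 4 lists: triad and tubule, calcium store and pump, membrane excitability, and calcium buffers, sensors and entry. Of their 56 genes, 50 were tested. With chemotherapy, 4 of the 50 were lower than in healthy muscle and 0 were higher, beside 6.41% and 7.3% of all genes, and the median log2 fold change was -0.10, against -0.02 for all genes. Of those that fell, Scn4a, Dysf and Orai1 are described. In the tumor comparison and between chemotherapy and tumor muscle, 0 of the 50 were called. Their median log2 fold changes were 0.01 and -0.05.

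Scn4a encodes the sodium channel that carries the action potential along the fiber. It fell from 567 ± 107 CPM (n = 5) to 359.9 ± 57.8 CPM (n = 6) with chemotherapy, a log2 fold change of -0.65 ± 0.17 with an adjusted p of 0.0303. Dysf encodes dysferlin, a membrane repair protein also found at the tubules. It fell from 263 ± 54.8 CPM to 167 ± 25.9 CPM without overlap, a log2 fold change of -0.65 ± 0.17 with an adjusted p of 0.0290. Orai1 encodes the pore of store-operated calcium entry. It fell from 107.6 ± 38.4 CPM to 48.1 ± 14.6 CPM, a log2 fold change of -1.16 ± 0.26 with an adjusted p of 0.0261. The calls of Scn4a, Dysf and Orai1 were lost in the same 10 of 29 alternatives as those of Cacna1s and Cacng1, among them leaving out any 1 of healthy libraries 1, 3 and 4. Without those 3 libraries together their log2 fold changes were -0.43, -0.37 and -0.50, each with an adjusted p of 0.899.

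Neither calsequestrin, the calcium buffer of the store, passed the test with all samples kept. Casq1, its fast-fiber form, was at 3923 ± 954 CPM (n = 5) in healthy, 3489 ± 576 CPM (n = 5) in tumor and 3501 ± 465 CPM (n = 6) in chemotherapy muscle, and the adjusted p of its fold change from healthy was 0.592 and 0.487. Casq2, the slow-fiber and heart form, had log2 fold changes of 0.68 ± 0.23 with a tumor and 0.42 ± 0.22 with chemotherapy. Without healthy library 5, Casq2 was called higher with chemotherapy (0.71, adjusted p of 0.0223), and with 1 surrogate variable it was at -0.017. Atp2a2, the calcium pump of slow fibers, was at 1097 ± 283 CPM in healthy, 1852 ± 364 CPM in tumor and 1213 ± 239 CPM in chemotherapy muscle. Its log2 fold change of 0.76 ± 0.19 with a tumor was among the 4 smallest p-values of the lists, as were Tnnc1 (0.88 ± 0.26) and Orai1 (-0.88 ± 0.27), all at an adjusted p of 0.211. Atp2a2 was among 245 genes called higher in that comparison without healthy library 2 (adjusted p of 0.0488), and was also called by DESeq2 (0.0454). Between chemotherapy and tumor muscle, the 4 smallest were Atp2a2 (-0.61 ± 0.18), Scn4a (-0.42 ± 0.17), Stim2 (0.38 ± 0.18) and Sypl2 (-0.30 ± 0.17), all at an adjusted p of 0.778.

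Fiber type and other cells were followed by marker lists beside these results. In bulk RNA, fewer cells of a type and less RNA per cell cannot be told apart. Fast-fiber markers summed to 145000 to 205012 CPM in healthy and 146845 to 175680 CPM in chemotherapy muscle, and 1 of 9 was lower. Slow-fiber markers summed to 5658 to 12965 CPM in healthy, 8104 to 16014.5 CPM in tumor and 6456 to 10838 CPM in chemotherapy muscle, with 0 of 9 called. Their log2 fold changes were negative for 0 of 9 in tumor minus healthy, with a median of 0.76. In chemotherapy minus tumor 9 of 9 were negative, with a median of -0.46, and in chemotherapy minus healthy 2 of 9, with a median of 0.15. Of the myosin heavy chains, Myh4 had log2 fold changes of 0.15 ± 0.19 with a tumor and -0.0042 ± 0.18 with chemotherapy, and Myh7 of 0.55 ± 0.26 and -0.38 ± 0.25, none of them called.

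Of 5 general muscle fiber markers, 3 were called, and these were lower, as Cacna1s, Cacng1 and Cacnb1 were. With chemotherapy, Acta1 fell by 0.86, Ckm by 0.82 and Des by 1.09 on the log2 scale. In tumor minus healthy their log2 fold changes were -0.80, -0.77 and -0.88, none of them called. Mb, at 0.45 ± 0.20, and Neb, at 0.78 ± 0.36, had positive log2 fold changes with chemotherapy. These did not pass the test, with adjusted p-values of 0.114 and 0.129. Fibroblast markers were lower in 4 of 6 cases, with sums of 4624 to 14302 CPM in healthy and 2271 to 10819 CPM in chemotherapy muscle. Pericyte and smooth muscle markers were lower in 4 of 6 tested, with sums of 335 to 412 CPM in healthy, 292 to 456 CPM in tumor and 206 to 299.9 CPM in chemotherapy muscle, and Cnn1 was at 0 in 1 sample. Endothelial markers had 1 of 6 higher and 1 lower, with sums of 239 to 261 CPM in healthy and 170.3 to 239 CPM in chemotherapy muscle. In the same comparison 1 of 5 satellite cell markers was lower, and none of 7 macrophage, 4 red blood cell, 5 nerve and 3 adipocyte markers tested was called. Of these, Lep was at 0 in 3 samples, and Cidec and Sox10 were at 0 in 1 sample each. The part of these cells in the results of the channel genes was not tested.

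**Figure D5:**
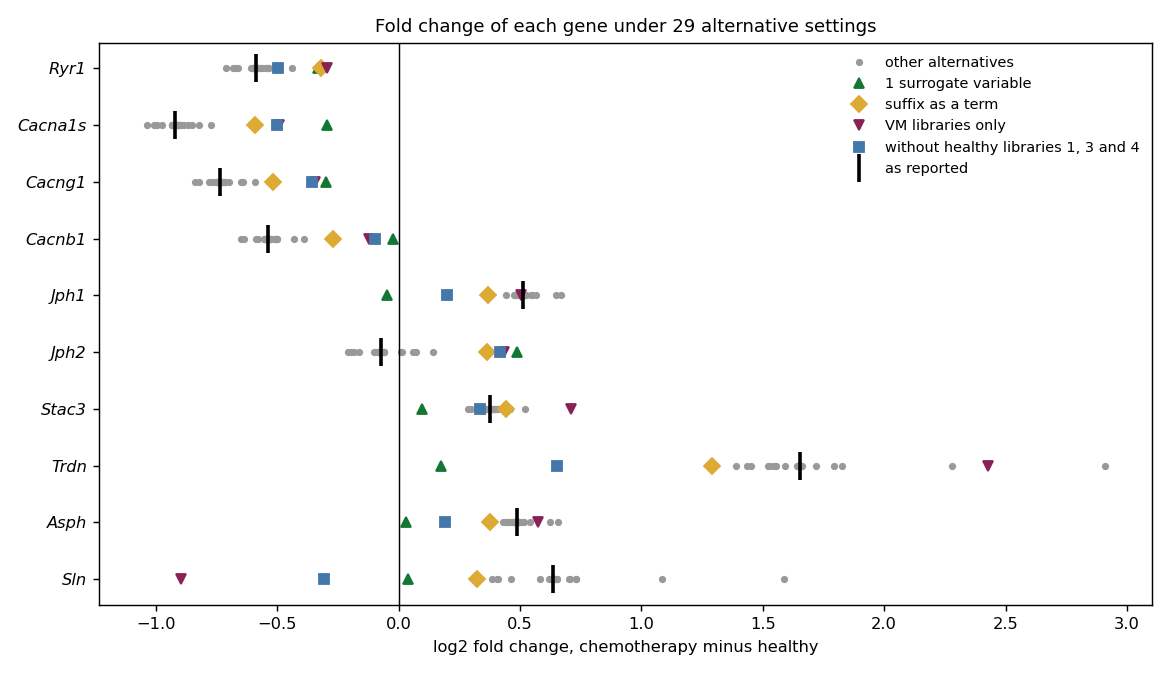
Log2 fold change of each of the 10 genes in chemotherapy minus healthy as reported (black bar) and under 29 alternative settings (points). Cacna1s, Cacng1 and Cacnb1 stay below 0 in all of them, and come closest to it with 1 surrogate variable, at -0.30, -0.30 and -0.02.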

How the data were processed

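The table the authors deposited holds raw read counts by gene for 17 libraries; per the labels, they were made from total RNA with a stranded kit that removes ribosomal RNA. Tools listed in the submitters' processing notes are TopHat2 2.0.10, Bowtie2, Trim Galore 0.4.1, CASAVA 1.9 and FastQC 0.11.4. Build, annotation and counting program: not given in the sources used here. Of 32883 entries, 388 without a gene name, with 0.102% to 0.373% of the counts, were left out. Of the counts from 1 to 10, 45.9% (library 15) to 59.5% (library 4) were even, and whether read mates were counted singly is not stated.

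Counts were filtered with filterByExpr (minimum count 10), scaled by TMM and fitted with edgeR 4.0.16 (R 4.3.3; robust quasi-likelihood, 3 groups in 1 model, 16 samples, 13 residual degrees of freedom); p-values were adjusted by Benjamini-Hochberg over the 11856 genes tested. Levels are CPM on the TMM scale, and log2 values for correlations use a prior count of 2. Ratios of counts were compared by exact two-sided permutation tests, over 252 arrangements for 5 against 5 and 462 for 6 against 5. The smallest possible p of these tests was 0.00794 for 5 against 5. Alternatives used DESeq2 1.42.0, limma 3.58.1 and sva 3.50.0. The fit was also run on simulated counts, with an outcome that is not reported here. Those counts were drawn independently for each gene and lack the shared variation between these samples, so the run cannot show how the fit handles it. The 10 genes and the lists were chosen with earlier results of these data known. Named besides the 10 genes were the called genes of the lists, or else the 4 with the smallest p. The calsequestrins, the slow-fiber pump and 2 myosins were set by name. Also named were the 5 genes most like Ryr1 and Sln (mean of at least 5 CPM). Cacna2d1, the markers, and genes named under other observations were chosen after their values were seen. Another planned ratio, of Sln to Atp2a1, was not analysed here, nor were Mrln, Strit1, Calm3, Ttn, Myh1, Myh2 and Pecam1. A gene of the lists is not reported here.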

Additional observations from a re-analysis of the deposited data

Results flagged for a closer look

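Sln in tumor library 10 stood apart from the other tumor samples, at 5.71 CPM against 9.16 to 10.9 CPM. On the log2 scale its gap to the nearest sample was 0.733 of the range of the group, above Dixon's 95% critical value for 5 samples. It was 1 of 39 groups of values examined (the 10 genes and 3 ratios in each of 3 groups), and about 1 in 20 such groups pass by chance.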

How the results depend on the processing

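Of 870 values of the 10 genes (3 comparisons, 29 alternatives), 827 kept their direction. In chemotherapy minus healthy, Cacna1s and Cacng1 kept their call in 19 of 29 alternatives and Cacnb1 in 14, and their direction in all 29. Healthy libraries 1, 3 and 4 share the suffix MB with healthy library 2 and chemotherapy library 11 alone, so a suffix term rests on few samples, and the depth of Sln, 21 to 189 counts, limits its precision. No paired analysis was possible because every library number is used once, so the groups share no replicate number. The cause of the changes below was not tested. Fits that left out libraries also held fewer samples, and the part of that was not tested either.

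In chemotherapy minus healthy, all genes called higher numbered 865 and lower 760. With VM libraries only, without healthy libraries 1, 3 and 4, and with either the suffix or 1 surrogate variable as a term, the number called fell to 0 in each direction, and so did the 3 of the 10 genes and the 4 list genes called lower. With total counts only it was 1669 higher and 348 lower, with 3 of the 10 genes (Jph1, Stac3 and Asph) and 4 list genes higher; 82.7% of the calls were then higher, against 53.2% with TMM, and the median of all genes was 0.12, against -0.02. With no filter, 474 were higher and 410 lower. DESeq2's Wald test called 1454 higher, with 2 of the 10 genes, and limma-voom 1574, with 2 of the 10 genes and 1 list gene; both times the 2 were Trdn and Asph.

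In tumor minus healthy, edgeR called 0 genes, with 2134 at an unadjusted p below 0.05 and a smallest adjusted p of 0.211, while DESeq2 called 17 higher and 23 lower, among them 1 of the 10 genes lower and 1 list gene each way. In chemotherapy minus tumor, edgeR called 0 genes, with 685 at an unadjusted p below 0.05. DESeq2 called 2 higher and 7 lower there, and 1 surrogate variable gave 4 and 4.

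Leaving out 1 sample at a time, all genes called in chemotherapy minus healthy ran from 0 to 2024 higher and 0 to 1775 lower. Those among the 10 genes ran from 0 to 4 each way, and among list genes from 0 to 6 higher and 0 to 9 lower. In tumor minus healthy the ranges were 0 to 245 higher and 0 to 259 lower, with 0 to 1 higher and 0 to 2 lower of the 10 genes and 0 to 1 each way of the list genes. In chemotherapy minus tumor 0 to 3 were lower. The ratio of Ryr1 to Cacna1s ran from 0.41 to 0.66 in tumor minus healthy and from 0.19 to 0.42 in chemotherapy minus healthy, and that of Asph to Trdn from -2.23 to -1.50 in chemotherapy minus healthy. The ratio of Jph2 to Jph1 in chemotherapy minus tumor ran from -0.14 to 0.24 and was -0.14 with VM libraries only. With healthy libraries 1, 3 and 4 left out that ratio differed by 0.085 in tumor minus healthy and 0.12 in chemotherapy minus healthy, in place of -0.69 and -0.65. Log2 fold changes with both signs were those of Sln in tumor minus healthy (-0.074 to 1.10), Myh4 in chemotherapy minus healthy (-0.12 to 0.13), Jph2 in chemotherapy minus healthy (-0.21 to 0.14), Casq1 in chemotherapy minus tumor (-0.054 to 0.093), Cacng1 in chemotherapy minus tumor (-0.082 to 0.045) and Cacnb1 in chemotherapy minus tumor (-0.15 to 0.010).

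The following log2 fold changes had the opposite sign to those reported, and none passed the threshold. With DESeq2 size factors, chemotherapy minus healthy had Myh4 at 0.0027. With total counts only, chemotherapy minus healthy had Jph2 at 0.070 and Myh4 at 0.14, and chemotherapy minus tumor had Cacng1 at 0.012. With no filter, chemotherapy minus healthy had Myh4 at 0.00025. With a mean of at least 5 CPM required, chemotherapy minus tumor had Casq1 at -0.00027. With the DESeq2 Wald test, chemotherapy minus healthy had Myh4 at 0.0027. With limma-voom, chemotherapy minus healthy had Myh4 at 0.043. With only the 2 groups compared, chemotherapy minus healthy had Myh4 at 0.0018. With 17 libraries, chemotherapy minus healthy had Jph2 at 0.011, and chemotherapy minus tumor had Cacng1 at 0.0073 and Casq1 at -0.014. With 1 surrogate variable, tumor minus healthy had Jph1 at -0.011, Jph2 at 0.067, Stac3 at -0.058, Trdn at -0.015, Sln at -0.18 and Asph at -0.11, and chemotherapy minus healthy had Jph1 at -0.047, Jph2 at 0.49, Atp2a2 at -0.11 and Casq2 at -0.017, and chemotherapy minus tumor had Cacna1s at 0.095, Cacng1 at 0.14, Cacnb1 at 0.11, Jph1 at -0.035 and Casq1 at -0.031. With the suffix as a term, tumor minus healthy had Ryr1 at 0.14, Jph2 at 0.23, Sln at -0.44 and Casq1 at 0.00047, and chemotherapy minus healthy had Jph2 at 0.36 and Atp2a2 at -0.12, and chemotherapy minus tumor had Casq1 at -0.024. With VM libraries only, tumor minus healthy had Ryr1 at 0.16, Jph2 at 0.29, Sln at -1.35, Casq1 at 0.32, Casq2 at -0.13 and Myh7 at -0.029, and chemotherapy minus healthy had Jph2 at 0.44, Sln at -0.89, Atp2a2 at -0.32, Casq1 at 0.34, Casq2 at -0.33 and Myh4 at 0.034. Leaving out healthy libraries 1, 3 and 4, tumor minus healthy had Jph2 at 0.14, Trdn at -0.10, Sln at -0.79, Asph at -0.10 and Myh4 at -0.10, and chemotherapy minus healthy had Jph2 at 0.42, Sln at -0.30 and Atp2a2 at -0.14.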

Other observations

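Among 9334 genes, those most like Trdn over the 16 samples included Xirp2 and Nexn, actin-binding proteins of the muscle fiber, both at an r of 0.99, and Cwf19l2 (0.99), Prpf4b (0.98) and Pnn (0.98), which act in the splicing of messenger RNA. With healthy libraries 1, 3 and 4 left out these 5 genes stayed at 0.97 to 0.99. For Jph2 the highest r was 0.90, with Lbx1, followed by 0.88 with Bin1, which encodes a protein that shapes the tubule membrane. The level of Bin1 was 666 ± 82.0 CPM (SD, n = 5) in healthy, 641 ± 63.5 CPM (n = 5) in tumor and 669 ± 106 CPM (n = 6) in chemotherapy muscle, and no comparison called it. These genes were named after their values were seen, and the values are descriptions with no test.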
